A study of Mus musculus with 6 samples.

Results

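The genes described here encode 8 proteins of cell death pathways implicated in the degeneration of *rd1* photoreceptors: the calpains *Capn1* and *Capn2*, their shared small subunit *Capns1*, their inhibitor calpastatin (*Cast*), the poly(ADP-ribose) polymerases *Parp1* and *Parp2*, the glycohydrolase *Parg* and the initiator caspase *Casp9*. They were chosen by symbol from a fixed list, and all 8 were found among the 46078 genes of the count table. RNA-seq had been performed on cones flow-sorted from retinal explants of rd1TN-XL mice, whose rods die from a *Pde6b* mutation and whose cones carry the fluorescent calcium sensor TN-XL under the human red opsin promoter. All explants, which included the retinal pigment epithelium, were set up at PN19 and cultured for 7 days, either with 10 nM trichostatin A (TSA), an inhibitor of histone deacetylases, or with its solvent DMSO (control). There were 3 libraries per group, each made from at least 2 explants of different animals and from 2000 to 5000 sorted cells. P-values therefore measure the spread between these 3 pools of cones per group. All cones carried the *rd1* mutation and the transgene, and no wild-type cones were measured. The harvest day was PN26 by the sample titles, whereas a time label gave PN29 to PN31 for the TSA-treated samples and PN26 to PN28 for the controls. If that label held, age and treatment cannot be told apart.

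Calpains are calcium-activated cysteine proteases. The large catalytic subunits encoded by *Capn1* and *Capn2* each pair with the small subunit encoded by *Capns1*, and calpastatin blocks the active enzymes. PARP1 and PARP2 sense DNA strand breaks and build chains of poly(ADP-ribose) from NAD, while PARG takes these chains apart. Caspase-9 starts the mitochondrial pathway of apoptosis once cytochrome c has assembled the apoptosome with APAF1. In *rd1* photoreceptors, overactive calpain and PARP are known from other work as features of a death that is largely non-apoptotic.

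These enzymes are regulated mainly at the protein level, and the libraries measure only their mRNA. The upstream sequences of 4 of the genes are shown because TSA acts on chromatin and because *Capns1* and *Parp2* were the only genes of the 8 read widely enough for a test, with *Parp1* and *Casp9* for comparison. Each holds the 250 bases before a RefSeq transcription start on GRCm38.p6, with GC boxes (GGGCGG on either strand) in capitals.
Capns1, chr7:30195154-30195403, minus strand: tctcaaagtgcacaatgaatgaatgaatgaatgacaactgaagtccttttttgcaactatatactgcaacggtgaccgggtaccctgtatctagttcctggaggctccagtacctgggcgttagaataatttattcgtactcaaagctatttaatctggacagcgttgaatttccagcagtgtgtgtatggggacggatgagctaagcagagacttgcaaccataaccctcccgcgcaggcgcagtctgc
Parp2, chr14:50807666-50807915, plus strand: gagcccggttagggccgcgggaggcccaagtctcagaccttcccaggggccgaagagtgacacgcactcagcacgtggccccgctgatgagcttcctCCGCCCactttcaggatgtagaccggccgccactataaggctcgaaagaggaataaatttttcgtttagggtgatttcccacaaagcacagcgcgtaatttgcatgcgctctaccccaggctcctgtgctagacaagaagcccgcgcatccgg
Parp1, chr1:180568641-180568890, plus strand: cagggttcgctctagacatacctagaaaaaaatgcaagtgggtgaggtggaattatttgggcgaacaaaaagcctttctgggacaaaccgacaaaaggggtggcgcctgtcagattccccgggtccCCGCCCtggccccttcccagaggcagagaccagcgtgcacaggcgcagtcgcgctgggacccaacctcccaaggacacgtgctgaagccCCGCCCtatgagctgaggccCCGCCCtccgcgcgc
Casp9, chr4:141793362-141793611, plus strand: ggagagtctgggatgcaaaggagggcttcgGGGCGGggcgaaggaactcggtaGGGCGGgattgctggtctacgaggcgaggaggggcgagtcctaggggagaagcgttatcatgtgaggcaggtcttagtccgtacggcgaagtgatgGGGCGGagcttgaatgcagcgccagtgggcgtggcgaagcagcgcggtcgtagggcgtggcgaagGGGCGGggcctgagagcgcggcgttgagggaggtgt
The *Casp9* window held 4 GC boxes and that of *Parp1* 3, against 1 for *Parp2* and 0 for *Capns1*. A GC box stood in 32.7% of 32851 such windows of all genes. The number of CpG dinucleotides was 25 for *Casp9*, 18 for *Parp2*, 16 for *Parp1* and 9 for *Capns1*, and the median over all windows was 6. None of these 4 windows held the CCAAT box (CCAAT, on either strand, in 33.8% of windows) or the TATA box (TATAAA, on either strand, in 12.4%). These matches are a description of the letters and not of factor binding. The *Capns1* window lies inside the annotated gene, whose upstream end is at 30198811. Any start further upstream is not covered by its numbers. Of the 13 windows for the 8 genes, those of *Parp2* and *Parg* also held the start of a gene on the opposite strand, as did 7.76% of all windows. For *Parp2* these were *Rpph1*, the RNA component of RNase P, 149 bases away, and *Ccnb1ip1*, and for *Parg* it was *Timm23*, a subunit of the mitochondrial import channel. *Rpph1* had 53, 78 and 12 counts in TSA-treated cones and 103, 197 and 212 counts in controls. The controls held the higher values, as for the 3.7% of 9621 genes tested whose groups did not overlap with TSA lower. Its log2 fold change was -2.13 (edgeR unadjusted p = 0.201). *Parp2* had its highest counts in TSA-treated cones, but its groups overlapped (edgeR unadjusted p = 0.373). *Timm23* had 385 to 999 counts in every library, also in the 4 libraries where *Parg* had at most 3.

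Values listed for a group are those of its replicates 1, 2 and 3, in that order. The libraries held 9135389 to 13650676 counts in genes. Cone markers made up 2.97 to 4.98% of the counts in TSA-treated and 3.13 to 5.28% in control libraries, with all 10 markers at 10 counts or more in each library. Of 11 rod markers, 4 to 6 reached 10 counts in TSA-treated and 3 or 4 in control libraries. Together they took 1.13 to 1.72% of the counts in TSA-treated and 1.62 to 2.36% in control libraries. TSA replicate 1 stood apart. Müller glial markers took 1.43% of its counts and 0.073 to 0.126% elsewhere. All 10 microglial markers reached 10 counts there, with 0.274% of the counts, whereas no more than 3 of the 10 did so in any other library, with at most 0.0194%. It also had the most counts in bipolar (0.452%, against 0.12 to 0.239% elsewhere), amacrine and horizontal cell markers. One microglial marker, *C1qb*, a complement subunit, was not confined to it, with 6464, 1393 and 911 counts in TSA-treated cones and 0 in every control (edgeR unadjusted p = 0.000475, adjusted p = 0.405). Fold changes of *Capns1* and *Parp2* and the *Parp1* mean are therefore also given without this library. Fold changes of all other genes include it. Fewer cells with a transcript and less transcript per cell cannot be told apart in such libraries.

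The transcripts were scarce and unevenly spread over the libraries. *Capns1* and *Parp2* were the most abundant, with totals of 3124 and 3265 counts over the 6 libraries. Totals for the other 6 genes lay between 3 (*Capn1*) and 856 (*Parg*). Levels are given as CPM, counts scaled to 1e6 by the library total adjusted with the TMM factors of edgeR. Genes over 1 CPM in 2 or more libraries of either group were tested, 9621 in all. For this filter alone, CPM were taken by the library total without the TMM factors. The wording of this filter follows the study's methods, but the genes kept need not be those the study kept. It was passed by 2 of the 8 genes, *Capns1* and *Parp2*, against 37.2% of 21519 protein-coding genes. The floor of detection covers counting error only, as reads without molecular identifiers are not independent molecules. A library with 0 counts of a gene allows up to 3 counts, which is 0.207 to 0.279 CPM.

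**Figure D1:**
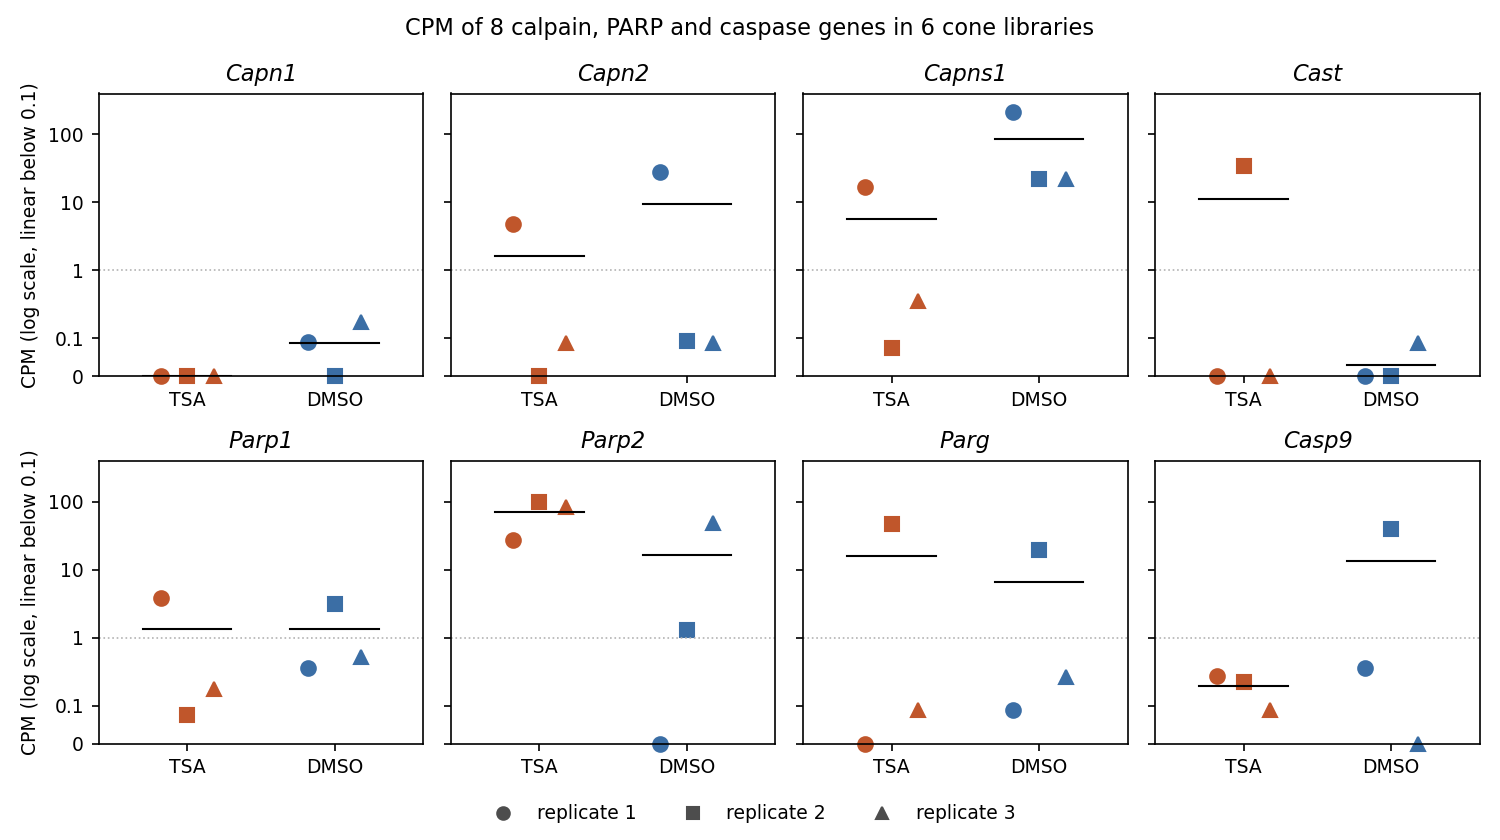
CPM of each gene (log axis, linear below 0.1) in TSA-treated (left, orange) and DMSO control libraries (right, blue), with a marker shape for each replicate number, a black line at the group mean and a dotted line at 1 CPM. *Parp2* lies above 1 CPM in all 3 TSA-treated libraries and *Capns1* in all 3 controls, while *Cast* and *Casp9* each rise above 1 CPM in 1 library.

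*Capns1* (chr7:30186936-30198811, minus strand, GRCm38), which encodes the regulatory subunit that stabilises both classical calpains, had 243, 1 and 4 counts in TSA-treated cones, against 2388, 238 and 250 counts in controls. In CPM these were 16.8, 0.0750 and 0.352 in TSA-treated cones and 215.7, 22.1 and 21.9 in control cones. All 3 controls thus lay above all 3 TSA-treated libraries, although TSA replicate 1 came close to the lower controls. Groups that did not overlap were found for 10.1% of the 9621 genes tested, with TSA lower for 3.7%, and for 1 of the 2 tested genes of the 8. The group means were 5.73 ± 9.56 CPM in TSA-treated and 86.6 ± 111.8 CPM in control cones (SD, n = 3 each). The quasi-likelihood test of edgeR, fitted to all 9621 genes, gave a log2 fold change of -3.91 (standard error 2.24, 95% interval -9.13 to 1.31, unadjusted p = 0.121, Benjamini-Hochberg adjusted p = 0.781). *Capns1* therefore did not pass, and the interval also takes in increases. TSA replicate 1, with its glial markers, was the only TSA-treated library in which the gene was read at more than 4 counts. Without it the log2 fold change was -8.60 (edgeR unadjusted p = 0.0156, adjusted p = 0.613), and without control replicate 1, which held 77.9% of the summed CPM, it was -1.96 (edgeR adjusted p = 1.000). The part of the glial markers in this value was not tested.

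The 2 catalytic subunits were read far less than the small subunit. *Capn2* (chr1:182467260-182517608, minus strand), the large subunit of m-calpain, had 70, 0 and 1 counts in TSA-treated cones and 309, 1 and 1 counts in controls. It was thus seen in replicate 1 of both groups and hardly elsewhere, and the groups overlapped. *Capn1* (chr19:5988545-6015897, minus strand), the large subunit of µ-calpain, had 0 counts in every TSA-treated library and 1, 0 and 2 in controls, which is at the limit of what these libraries can detect. To compare genes, CPM were divided by the exon length of each gene in kb. On this scale *Capns1* was above *Capn2* and *Capn1* in the 4 libraries where it had 10 counts or more. In TSA replicate 2 it had 1 count and the others 0, which sets no order. Nor does TSA replicate 3, where *Capns1* had 4 counts, *Capn2* 1 and *Capn1* 0. *Capns1* had 6.77, 0.0303 and 0.142 CPM per kb in TSA-treated cones and 87.1, 8.94 and 8.85 in controls. *Capn2* reached 0.761 CPM per kb in TSA replicate 1 and 4.40 in control replicate 1, and at most 0.0147 in the others.

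*Cast* (chr13:74692368-74808810, minus strand), the endogenous calpain inhibitor, came from 1 library. It had 0, 453 and 0 counts in TSA-treated cones and 0, 0 and 1 counts in controls. TSA replicate 2 held 99.7% of its summed CPM, and *Capns1* had 1 count there. The exons of *Cast* overlap those of *Erap1*, an aminopeptidase gene on the opposite strand, by 834 bases, but *Erap1* itself had at most 3 counts in any library.

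*Parp2* (chr14:50807841-50821301, plus strand), the smaller partner of PARP1 in sensing DNA breaks, was the most widely read gene of the 8, with 10 counts or more in 5 libraries. It had 403, 1352 and 944 counts in TSA-treated cones and 0, 14 and 552 counts in controls. All 3 TSA-treated libraries were high, but control replicate 3 lay within their range, so the groups overlapped. In CPM the means were 70.8 ± 38.3 in TSA-treated and 16.6 ± 27.6 in control cones (SD, n = 3 each). Its log2 fold change was 2.09 (standard error 2.21, 95% interval -3.05 to 7.24, edgeR unadjusted p = 0.373, adjusted p = 0.9999). The difference was thus within the spread between libraries. Without control replicate 3 the log2 fold change was 6.64 (edgeR unadjusted p = 0.0374, adjusted p = 0.638), and without control replicate 1 it was 1.53. It was 2.48 without TSA replicate 1.

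*Parp1* (chr1:180568924-180601254, plus strand), the enzyme that accounts for most poly(ADP-ribose) after DNA damage, had 56, 1 and 2 counts in TSA-treated cones and 4, 34 and 6 counts in controls. Its mean was 1.37 ± 2.16 CPM in TSA-treated and 1.35 ± 1.57 CPM in control cones (SD, n = 3 each). Each mean rested on 1 library. Without TSA replicate 1 the mean in TSA-treated cones was 0.126 CPM (n = 2). Per kb of exon, *Parp2* exceeded *Parp1* in all 3 TSA-treated libraries, with 7.66, 27.9 and 22.9 CPM per kb of *Parp2* beside 0.730, 0.0142 and 0.0333 of *Parp1*. It also did so in control replicate 3, where *Parp2* had 13.3 and *Parp1* 0.0994 CPM per kb. In control replicate 2, *Parp2* had 0.359 and *Parp1* 0.598 CPM per kb. Control replicate 1, with 0 and 4 counts of these genes, sets no order.

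*Parg* (chr14:32201949-32297550, plus strand), which removes poly(ADP-ribose), had 0, 641 and 1 counts in TSA-treated cones and 1, 210 and 3 counts in controls. As with *Capn2*, 1 library of each group was high, here replicate 2, and the groups overlapped. The antisense gene *Gm17210*, which lies over *Parg* without shared exon bases, had 413, 195 and 389 counts in TSA-treated cones and 332, 0 and 0 counts in controls. It was thus read in TSA replicates 1 and 3, where *Parg* had at most 1 count. Whether strand was used in counting is not given in the sources used here, so that reads of opposite genes may be mixed.

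*Casp9* (chr4:141793612-141815976, plus strand) had 4, 3 and 1 counts in TSA-treated cones and 4, 428 and 0 counts in controls. Control replicate 2 held 97.7% of its summed CPM, and in the other 5 libraries the gene was near the limit of detection. Exons of *Casp9* share 94 bases with the protease genes *Cela2a* and *Ctrc* on the opposite strand, which had at most 1 count in any library.

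**Figure D2:**
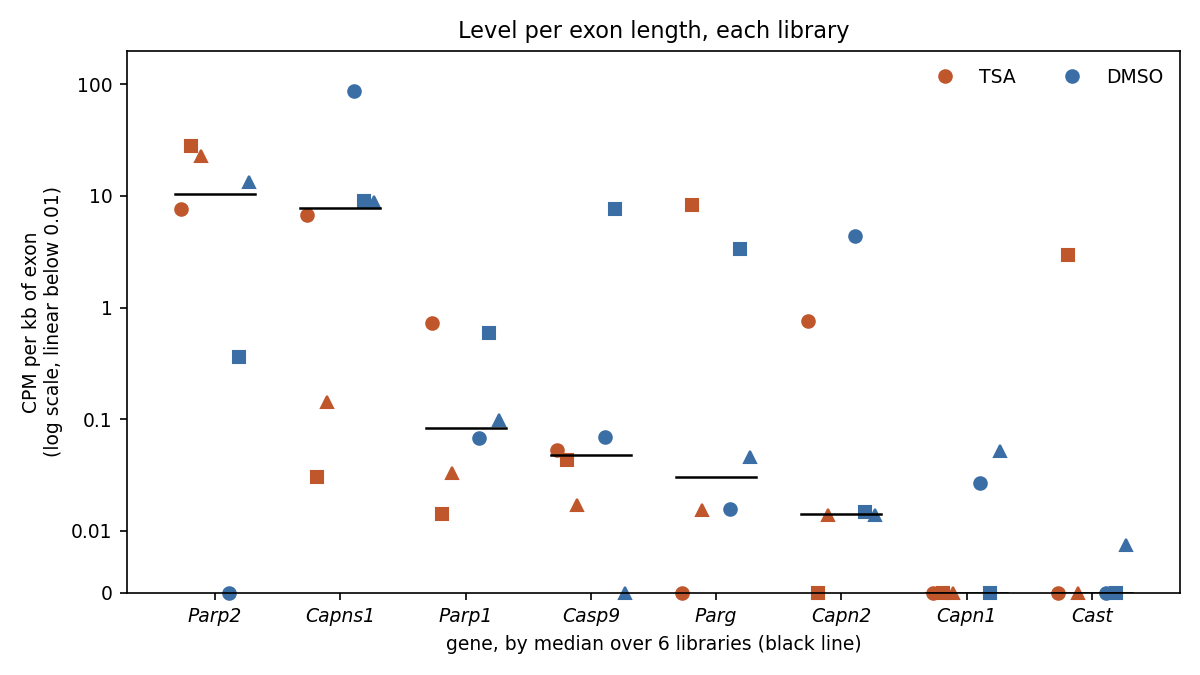
CPM per kb of exon (log axis, linear below 0.01) of each gene in TSA-treated (orange, left of each name) and control libraries (blue, right), ordered by the median over the 6 libraries (black line). *Parp2* (median 10.5) and *Capns1* (7.81) lie above the other 6 genes, whose medians are 0.0838 or lower.

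By the median CPM per kb over all 6 libraries the order was *Parp2* (10.5), *Capns1* (7.81), *Parp1* (0.0838), *Casp9* (0.0482), *Parg* (0.0306) and *Capn2* (0.0143), with *Capn1* and *Cast* at 0. The ranges over libraries of each pair of neighbours in this order overlapped, so no neighbours differed beyond their spread. By the mean, *Capns1* (18.6) came before *Parp2*.

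Such reading in single libraries was common among genes of this abundance. The 7 genes with 10 or more counts in all had totals of 103 to 3265 counts. Of the 7308 protein-coding genes in that range, 68.2% had at least 50% of their summed CPM in 1 library, as did 5 of the 7, and 21.6% had at least 90% there, as did *Cast* and *Casp9*. The filter was passed by 68.3% of these 7308 genes and by 2 of the 7. No gene of the 8 was read at 10 counts or more in all 6 libraries, as 8.4% of the 7308 were. The TSA-treated libraries had 4, 3 and 1 of the 8 genes at 10 counts or more, and the controls had 2, 5 and 2.

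**Figure D3:**
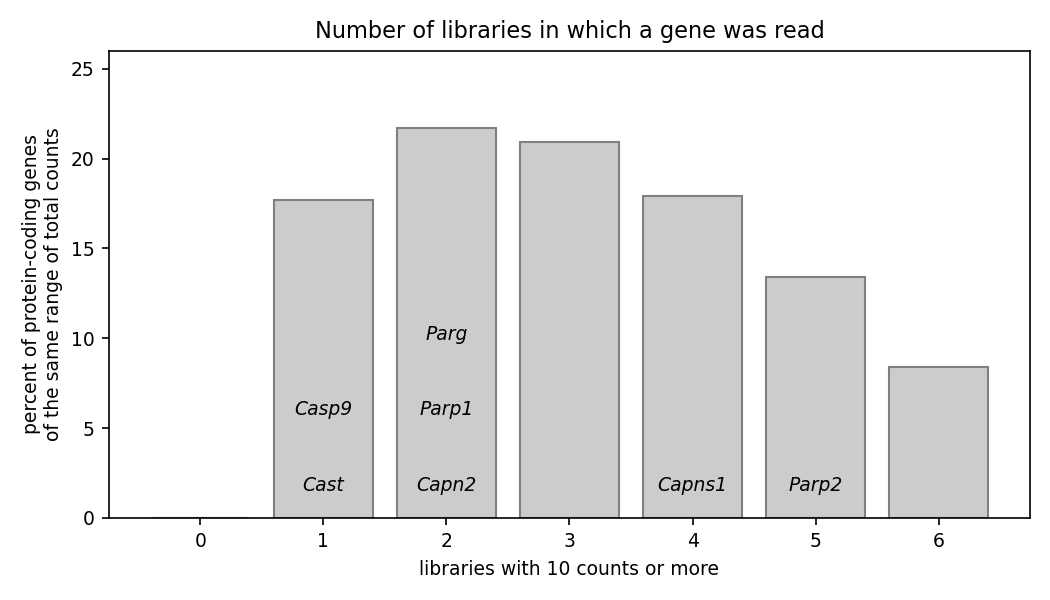
Percentage of the 7308 protein-coding genes with totals of 103 to 3265 counts (bars) by the number of libraries in which a gene had 10 counts or more, with the 7 genes of that range written on the bar of their own number. *Parp2* was read in 5 libraries, *Capns1* in 4, *Capn2*, *Parp1* and *Parg* in 2, and *Cast* and *Casp9* in 1.

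Across the comparison of TSA-treated with control cones, edgeR called 0 of 9621 genes (0%) at an adjusted p under 0.05, and 993 (10.3%) had an unadjusted p of at most 0.05, 8.02% higher and 2.3% lower in TSA-treated cones. DESeq2 called 856 genes and limma-trend 0. With all 6 libraries and no block, neither *Capns1* nor *Parp2* reached an unadjusted p of 0.05 by edgeR. By limma-trend their unadjusted p-values were 0.0378 and 0.0630, both 0.641 after adjustment. DESeq2 gave *Parp2* an adjusted p of 0.987 and gave no p for *Capns1*. The other 6 genes were fitted only without a filter, over 29742 genes, where edgeR gave each an adjusted p of at least 0.446. That lowest value was of *Cast*, which rests on TSA replicate 2.

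**Figure D4:**
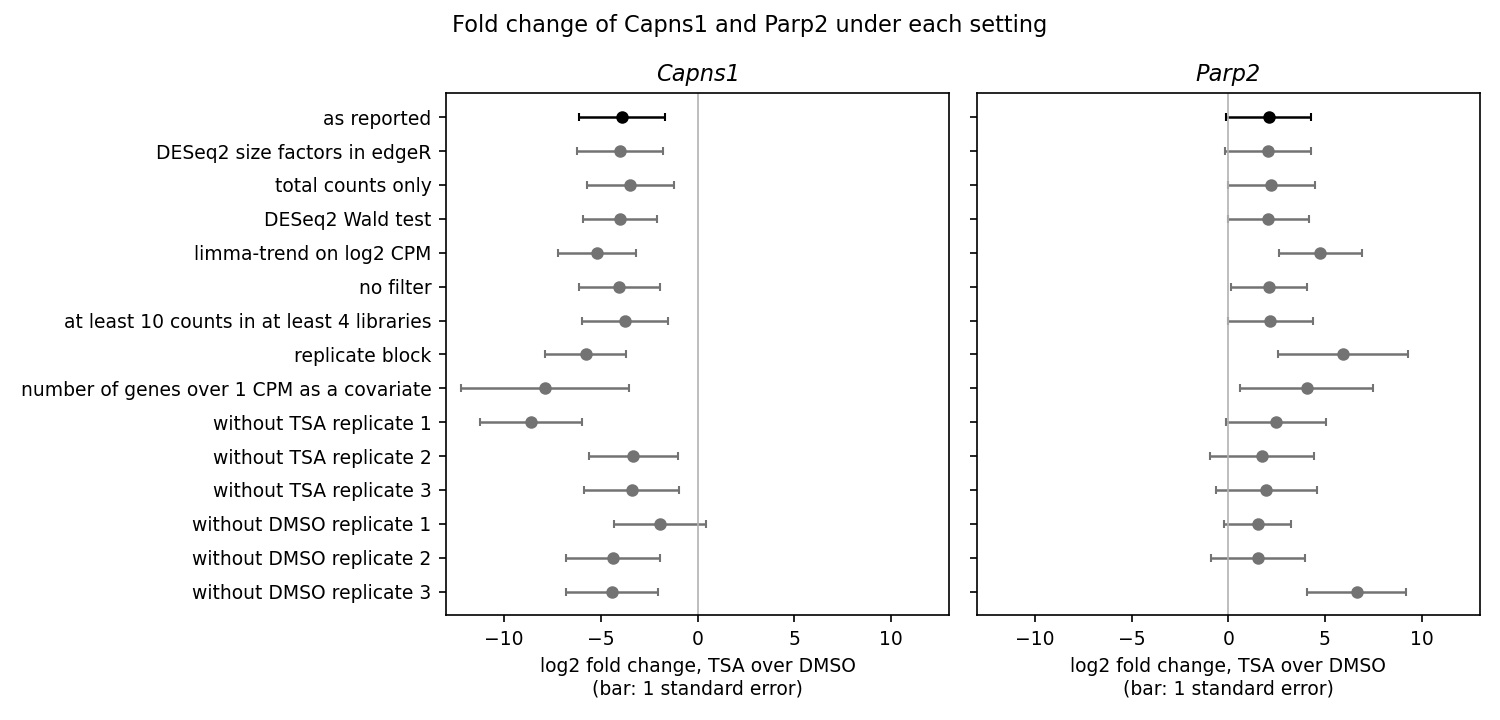
Log2 fold change of *Capns1* and *Parp2*, TSA-treated over control cones, as reported (black) and under each other setting (grey), with bars of 1 standard error. The estimates keep below 0 for *Capns1* (-8.60 to -1.96) and above 0 for *Parp2* (1.53 to 6.64) under each setting drawn.

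Among 3433 genes with at least 10 counts in every library, *Dennd2a* had the profile most like that of *Capns1* over the 6 libraries (Pearson r = 0.962 on log2(CPM + 1)), with 312, 140 and 62 counts in TSA-treated cones and 742, 263 and 326 in controls. The profile of *Cadm3*, a cell adhesion gene, was the one most like that of *Parp2* (r = 0.994), with 409, 593 and 414 counts in TSA-treated and 29, 54 and 329 counts in control replicates. Both are descriptions of 6 libraries, picked as the best of many genes.

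Other genes of the same pathways were taken from 8 lists with 90 genes, all present in the table. Of these, 29 had fewer than 10 counts in every library, and 35 were tested. By edgeR, 3 of the 35 (8.57%) had an unadjusted p of at most 0.05, all 3 of them with more reads after TSA and 0 with fewer, and 0 passed an adjusted p of 0.05. This share was close to that of all genes tested (10.3%). The number was 4 without TSA replicate 1 and 1 without control replicate 3.

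Most further calpains were hardly read. Of 12 other calpain genes, 7 had fewer than 10 counts in every library and 1 was tested. That one, *Capn7*, an atypical calpain, had 440, 87 and 3 counts in TSA-treated cones and 827, 838 and 1 counts in controls, with a log2 fold change of -2.04 (standard error 2.27). *Capn10*, another atypical calpain, had 513 counts in TSA replicate 1 and 1044 in control replicate 1, and at most 6 elsewhere. It was thus read in the same replicate numbers as *Capn2*. Of the 7308 protein-coding genes with totals of 103 to 3265 counts, 21.7% had 10 counts or more in exactly 2 libraries. How many of them shared a given pair was not counted.

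Of 13 other PARP family genes, 7 were tested, 1 with a fold change above 0 and 6 below, with a median log2 fold change of -0.69, where that of all genes tested was 0.03. None reached an unadjusted p of 0.05. *Tnks2*, a tankyrase, which modifies proteins of telomeres and of Wnt signaling, was the most abundant and the only one with 10 counts or more in all 6 libraries, with 1440, 563 and 1261 counts in TSA-treated cones and 790, 2125 and 1579 in controls. Of 10 genes of ADP-ribose turnover and parthanatos, the death that follows PARP1 overactivation, 9 were tested and none reached that p. *Mif*, a cytokine that also acts as the nuclease of parthanatos, had 9600, 3761 and 5537 counts in TSA-treated cones and 5031, 1195 and 2575 in controls, with a log2 fold change of 0.86 (standard error 0.65). *Hpf1*, the cofactor that directs PARP1 and PARP2 to serine residues, had 4373, 3367 and 3551 counts in TSA-treated cones and 3956, 1905 and 3438 in controls. *Aifm1*, the mitochondrial flavoprotein that moves to the nucleus in parthanatos, had 83 to 1564 counts in TSA-treated and 230 to 418 in control libraries.

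Of 12 partners of PARP1 in the repair of single-strand breaks, 7 were tested. The most abundant was *Polb*, the repair polymerase, with 3369, 3291 and 2193 counts in TSA-treated cones and 2823, 2124 and 2349 in controls (log2 fold change 0.03, standard error 0.53). *Lig1*, a DNA ligase, was at an unadjusted p of 0.0325, with 31, 394 and 0 counts in TSA-treated cones and 0 in every control. Most of its counts came from TSA replicate 2, and TSA replicate 3 was at 0 like the controls. *Apex1* had 360, 111 and 761 counts in TSA-treated cones and 74, 0 and 0 in controls. *Pcna* had 2428, 1919 and 2075 counts in TSA-treated cones and 875, 1311 and 1635 in controls. For both, all 3 TSA-treated libraries lay above all 3 controls in CPM, as did 6.39% of all genes tested. Their edgeR unadjusted p-values were 0.192 and 0.467. *Xrcc1*, the scaffold that poly(ADP-ribose) recruits to breaks, had 844 counts in TSA replicate 2 and 206 in control replicate 2 and 0 elsewhere. *Parg* was read in the same 2 libraries, while 21.7% of the 7308 genes above had 10 counts or more in exactly 2 libraries.

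NAD, the substrate of PARP enzymes, was covered by 12 genes of its supply and use. Of these 3 were tested, all with a fold change above 0. *Nmnat3*, the mitochondrial NAD synthase, had 113, 351 and 547 counts in TSA-treated cones and 1, 4 and 3 in controls. Every TSA-treated library was above every control, a gap in this direction found for 6.39% of genes. Its log2 fold change was 6.77 (standard error 2.00, edgeR unadjusted p = 0.0105, adjusted p = 0.405). *Sarm1*, an NAD hydrolase that drives axon degeneration, had 358, 1 and 1033 counts in TSA-treated cones and 4, 3 and 2 in controls. TSA replicate 2 was below the controls (log2 fold change 7.09, edgeR unadjusted p = 0.0288, adjusted p = 0.405). *Nampt*, the rate-limiting enzyme of NAD salvage, had 125 counts in TSA replicate 1 and 103 in control replicate 2 and at most 3 elsewhere.

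**Figure D5:**
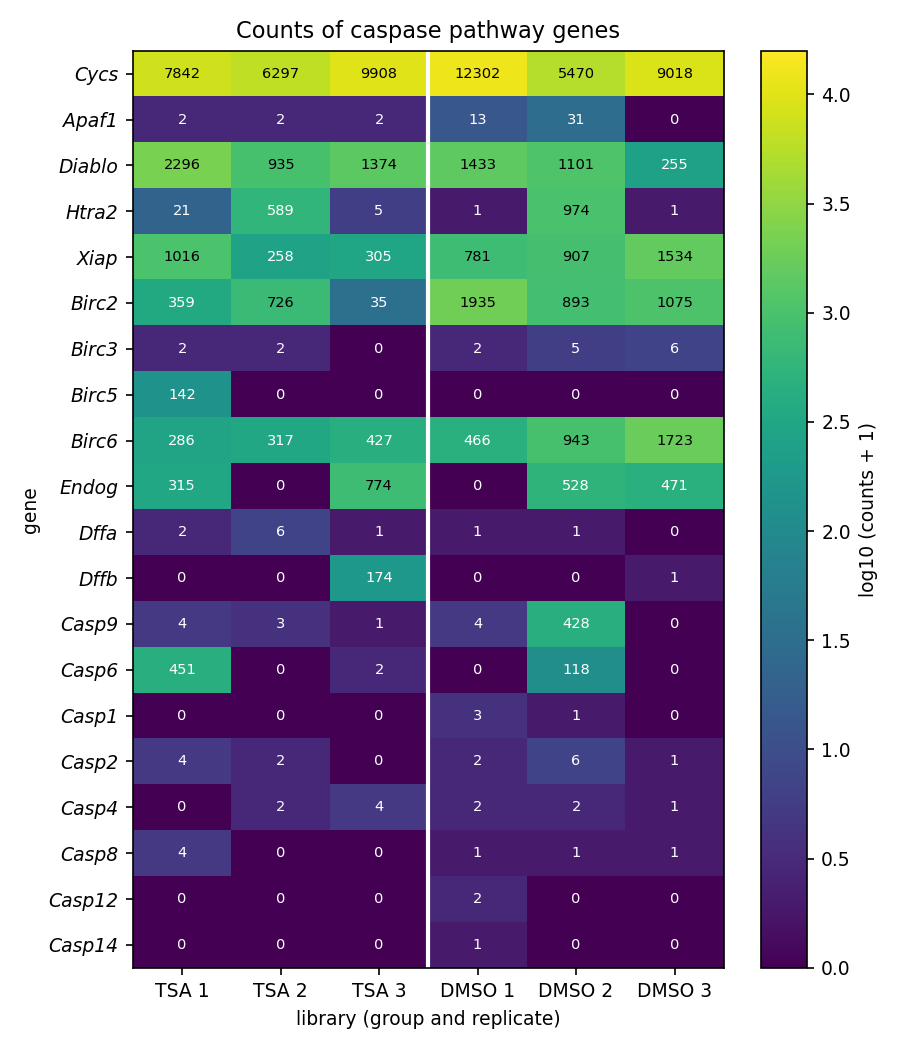
Counts of *Casp9*, 7 other caspases and 12 genes of the apoptosome and of caspase inhibition in 3 TSA-treated (left) and 3 control libraries (right), coloured by log10 (counts + 1). *Cycs*, *Diablo*, *Xiap*, *Birc2* and *Birc6* are read in every library, and most caspases in none above 10 counts.

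The caspases had few reads. Of 9 others, 8 had fewer than 10 counts in every library and none was tested. *Casp6*, an effector caspase, had 451 counts in TSA replicate 1 and 118 in control replicate 2, and at most 2 elsewhere. Glial markers were high in TSA replicate 1, and their part in this value was not tested. By contrast, *Cycs*, which encodes cytochrome c and is needed for respiration, had 7842, 6297 and 9908 counts in TSA-treated cones and 12302, 5470 and 9018 in controls (log2 fold change -0.35, standard error 0.46). *Apaf1*, its partner in the apoptosome, had 2 counts in each TSA-treated library and 13, 31 and 0 in controls. Of 12 genes of the apoptosome and of caspase inhibition, 7 were tested, 1 with a fold change above 0 and 6 below, and none reached an unadjusted p of 0.05. *Birc2*, an inhibitor of apoptosis protein, had 359, 726 and 35 counts in TSA-treated cones and 1935, 893 and 1075 in controls (log2 fold change -2.10, standard error 1.25). *Birc6* had 286, 317 and 427 counts in TSA-treated cones and 466, 943 and 1723 in controls (log2 fold change -1.79, standard error 1.08). For these 2 genes, as for *Xiap*, another inhibitor, all 3 TSA-treated libraries lay below all 3 controls in CPM, as did 3.7% of all genes tested. *Xiap* had 70.1, 19.3 and 26.8 CPM in TSA-treated cones and 70.6, 84.4 and 134.4 CPM in controls. The groups of *Birc3* also did not overlap, but it had at most 6 counts in any library and was not tested.

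Of 10 genes of necroptosis and pyroptosis, the lytic forms of programmed death, 1 was tested. *Dfna5*, which encodes gasdermin E, a pore-forming protein, had 1007, 725 and 188 counts in TSA-treated cones and 765, 698 and 96 in controls (log2 fold change -0.02, standard error 1.30). *Ripk3* and *Mlkl*, the kinase and the effector of necroptosis, had at most 1 count in any library. *Gsdmd*, *Ripk1* and *Fadd* had 293, 240 and 174 counts in TSA replicate 1 and at most 5 elsewhere. That library carried the glial and microglial markers, and it also had the most genes over 1 CPM (10795, against 6690 to 9100 elsewhere). The part of either in these counts was not tested.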

How the data were processed

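RNA-seq libraries were made by the authors with SMART-Seq v4 (17 PCR cycles) and Nextera XT (11 cycles). Per the labels, reads were aligned to GRCm38 with STAR 2.5.4a and counted with Subread 1.6.0. The deposited table holds raw counts per gene. A second deposited table, with the authors' own comparison (differences, test statistics and p-values), was not used. Depth, as counts in genes, was 9135389 to 13650676 per library.

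TSA-treated and control libraries (n = 3 each, grouped by title) were compared with edgeR 4.0.16 (quasi-likelihood, two-sided) in R 4.3.3, with TMM scaling, for genes over 1 CPM in at least 2 libraries of a group, with Benjamini-Hochberg adjustment over 9621 genes. The study itself used another test, based on permutations. DESeq2 1.42.0, limma-trend 3.58.1, other scalings and filters, a replicate block, a covariate and each library left out were alternatives. The code was tested on simulated data. Exon lengths came from GENCODE M21 and promoter windows from RefSeq (GRCm38.p6, 13 windows for the 8 genes).

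The genes and lists were chosen with earlier results of these data known. Named by rule were the 8 genes, up to 4 genes per list at an unadjusted p of 0.05 or less, the most abundant gene of each list and the gene most like each widely read one. Other list genes, overlapping genes and promoter partners were named after their values were seen. Some list genes are not reported here by name.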

Additional observations from a re-analysis of the deposited data

How the results depend on the processing

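The log2 fold change kept its direction, and the adjusted p stayed above 0.05 wherever one was given, under every alternative for *Capns1* and *Parp2*. Leaving out 1 library gave -8.60 to -1.96 for *Capns1* and 1.53 to 6.64 for *Parp2*. The count of genes called, 0 by edgeR as reported, was 856 with DESeq2 and 11 with no filter, and 0 with each library left out. The count at an unadjusted p of 0.05 or less was 993 as reported, 611 with limma-trend, 2780 with no filter, 138 with at least 10 counts in at least 4 libraries, 543 with a covariate for how many genes a library had over 1 CPM, and 694 to 901 with 1 library left out. In the pathway lists, an alternative chosen after seeing the data, the count of 3 became 15 with no filter, 0 with the stricter filter, and 1 to 4 with 1 library left out, the 1 being without control replicate 3. The causes of these shifts were not tested, beyond the number of genes tested, which was 29742 with no filter and 7019 with the stricter filter. With the replicate block, 621 genes had an unadjusted p of at most 0.05 and 0 were called. The fold change was -5.79 for *Capns1* (unadjusted p = 0.0327, adjusted p = 0.759, edgeR) and 5.92 for *Parp2*. Same-numbered libraries had correlations of their deviations from the group means of -0.0145, 0.0626 and 0.0396. Of the TSA-treated libraries only replicate 2 correlated best with its own number. With 3 libraries per group these values cannot show whether same-numbered libraries were prepared together. The sources used here do not say whether they were. Scaling by total counts moved the median log2 fold change of all genes to 0.14, against 0.03 as reported. Of the 8 genes, 6 had too few reads to be tested with the filter. The *Parp1* mean without TSA replicate 1 was chosen after seeing the data.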
